A study of Mus musculus with 6 samples.

Results

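The endoplasmic reticulum chaperones and the unfolded protein response were followed in primary brown adipocytes differentiated from WT or Ucp1-KO precursors. The 31 members are folding, degradation and sensor genes of this compartment, taken by their symbols. Of the 28890 RefSeq transcripts in the deposited table, 39 carried a member's symbol, and the transcript with the highest mean was taken for each gene. Abundance is given in RPKM, which corrects read numbers for the length of the transcript and the depth of the library, so that levels of different genes can be set side by side. A test was made only where the 6 cultures averaged 0.5 RPKM or more, a level reached by 30 members and missed by Ero1lb.

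The study asked how fluxes of fuel through brown adipocytes depend on UCP1, the mitochondrial uncoupling protein that makes brown fat produce heat, and sequenced RNA to describe its cell model. Precursor cells were isolated from the interscapular brown fat of male mice of the strain 129SvEvS1, aged 5 to 6 weeks. Both genotypes were grown to confluency, induced with a hormone cocktail and differentiated with insulin, triiodothyronine and rosiglitazone, and no stimulus was named for the RNA samples. There were 3 WT cultures (10, 11 and 12) and 3 Ucp1-KO cultures (13, 14 and 15), and the sources used here do not say whether each came from its own animal, so that p-values measure the spread between these cultures only.

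Proteins that enter the endoplasmic reticulum are folded there by chaperones, receive sugar chains and disulfide bonds, and are sent back to the cytosol for degradation if folding fails. When unfolded proteins pile up, the membrane sensors IRE1, ATF6 and PERK start the unfolded protein response. IRE1 and ATF6 raise chaperone and degradation genes through the transcription factors XBP1 and cleaved ATF6, while PERK slows protein synthesis and acts through ATF4 and CHOP. Fat cells depend on this machinery because they secrete adiponectin, a multimer held together by disulfide bonds.

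Ucp1 itself stood at 1775, 981 and 1157 RPKM in WT 10, 11 and 12 and at 307, 409 and 398 RPKM in Ucp1-KO 13, 14 and 15. The Ucp1-KO values lay below all WT values, and the knockout leaves a remnant transcript that is not translated. Adipocyte markers summed to between 30014 and 31933 RPKM in WT and between 31437 and 33206 RPKM in Ucp1-KO, and 6 of 6 had a log2 fold change above 0. The 5 brown adipocyte markers other than Ucp1 summed to between 1512 and 1779 RPKM in WT and between 1411 and 2422 RPKM in Ucp1-KO, with 4 of 5 above 0. The values rest on between 14989604 and 17727653 reads per culture, which were recovered from the RPKM values. The reads of the members made up between 0.446 and 0.726% of these totals.

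The members spanned a wide range of levels, as the plot of their RPKM values shows. Hspa5 was the most abundant by mean with 399 RPKM, in place 99 among 22466 RefSeq gene symbols with 1 transcript taken for each. Calr, Hsp90b1 and P4hb followed with means of 269, 262 and 225 RPKM. These are the main Hsp70, lectin, Hsp90 and disulfide isomerase proteins of the compartment. The IRE1 gene Ern1 had a mean of 4.26 RPKM, and Derl3 and Ero1lb were the lowest with 1.35 and 0.414 RPKM. Ero1lb rested on between 17 and 44 reads per culture and Derl3 on between 19 and 37, the fewest reads among the members.

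**Figure D1:**
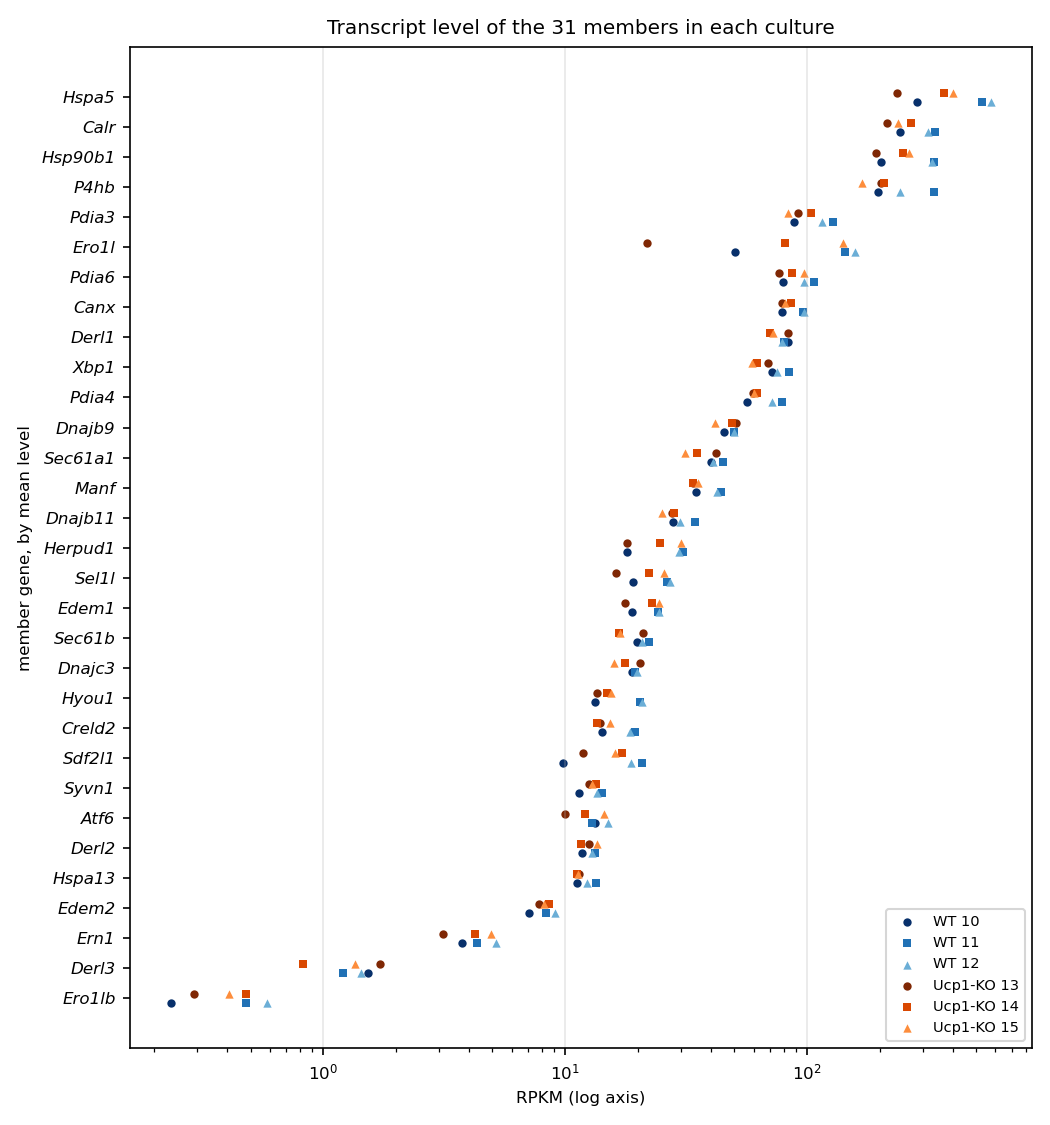
RPKM (log axis) of the 31 members in each of the 6 cultures, ordered by mean level; blue symbols are WT and orange symbols are Ucp1-KO cultures, 1 symbol per culture. Hspa5 is at the top and Ero1lb at the bottom, and the 2 genotypes overlap for all members but Xbp1.

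Promoters of 25 of the 31 members were found in the RefSeq windows used here, which reach from 250 bases before to 50 bases after the annotated start on GRCm38.p6. They were searched on both strands for the ER stress response element, CCAAT followed after 9 bases by CCACG, to which ATF6 is known to bind together with NF-Y. It was held by 10 of the 25 (40%), namely Hspa5, Dnajc3, Hsp90b1, Calr, Canx, Pdia6, Ero1lb, Creld2, Syvn1 and Derl3, whereas 37 of all 27025 genes with a window (0.137%) held it. Hsp90b1 had 2 copies, on opposite strands. The following stretches are shown because they are the copies in the 5 most abundant members that hold the element, each with 12 bases on either side. They are read 5′ to 3′ on the strand of the element, and capitals mark its 2 parts.
Hspa5, chr2:34772013-34772055, plus strand: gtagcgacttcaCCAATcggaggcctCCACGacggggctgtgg
Calr, chr8:84847063-84847105, plus strand: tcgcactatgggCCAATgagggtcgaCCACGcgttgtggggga
Hsp90b1 upstream copy, chr10:86705626-86705668, minus strand: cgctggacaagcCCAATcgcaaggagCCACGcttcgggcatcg
Hsp90b1 downstream copy, chr10:86705521-86705563, plus strand: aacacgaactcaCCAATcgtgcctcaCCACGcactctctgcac
Pdia6, chr12:17266479-17266521, plus strand: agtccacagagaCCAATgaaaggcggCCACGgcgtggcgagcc
Canx, chr11:50325788-50325830, minus strand: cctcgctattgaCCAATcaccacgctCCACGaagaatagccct

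The 9 bases between the parts differed among the genes, while the parts are fixed by the search. The element of Hspa5 began 65 bases before the start and that of Calr 162 bases before it, on the strand opposite to the gene. Those of Hsp90b1 began 212 and 107 bases before the start. A second element, ATTGG followed after 1 base by CCACG, was held by Herpud1 and Dnajb11, 2 of the 25 (8.0%), and by 12 of all genes (0.0444%). It is shown for Herpud1, a membrane protein of the degradation machinery, where it began 52 bases before the start and capitals again mark the 2 parts.
Herpud1, chr8:94386365-94386399, plus strand: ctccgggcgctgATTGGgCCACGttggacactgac

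TGACGTGG, a site first described for ATF6 and XBP1 binding, was found in 0 of the 25 member windows and in 193 of all genes (0.714%). These matches say only which letters lie in the windows. Binding was not measured.

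**Figure D2:**
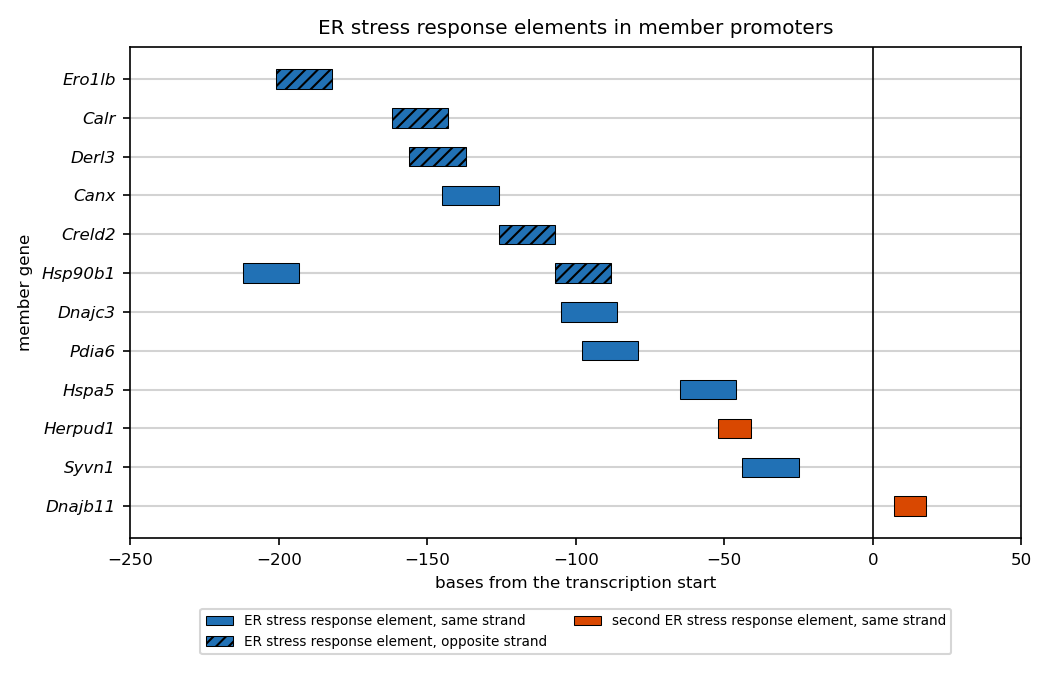
Position of the element matches in the member promoters, in bases from the annotated transcription start (0), 1 row per gene; boxes span each match, with hatching for the strand opposite to the gene and orange for the second element. Matches lie before the start, from 212 bases before it in Hsp90b1 to 44 bases in Syvn1, except that of Dnajb11, which lies after it.

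No member passed the threshold between the genotypes. With limma and Benjamini-Hochberg adjustment over 16865 transcripts, 0 of 30 members had an adjusted p under 0.05, the smallest being 0.868, and 0% of all transcripts tested did. Ucp1 itself, the deleted gene, also missed this threshold, with a log2 fold change of −1.78 (limma, unadjusted p = 0.00016, adjusted p = 0.868). At an unadjusted p under 0.05 there was 1 member, Xbp1, against 5.54% of all transcripts tested in either direction and 3.24% in the direction of Xbp1, lower in Ucp1-KO, and limma-voom on the recovered reads also gave 0 past the threshold and 1 member at an unadjusted p under 0.05. A log2 fold change below 0, lower in Ucp1-KO, was fitted for 29 of 30 members (28 with median-of-ratios scaling, where Syvn1 changed sign), against 50.4% of all transcripts. The median over the members was −0.17 on the log2(RPKM + 1) scale, against −0.00 over all transcripts. The members were measured in the same 6 cultures and are not replicates of each other. In whole cultures, fewer cells of a type and less RNA per cell cannot be told apart.

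**Figure D3:**
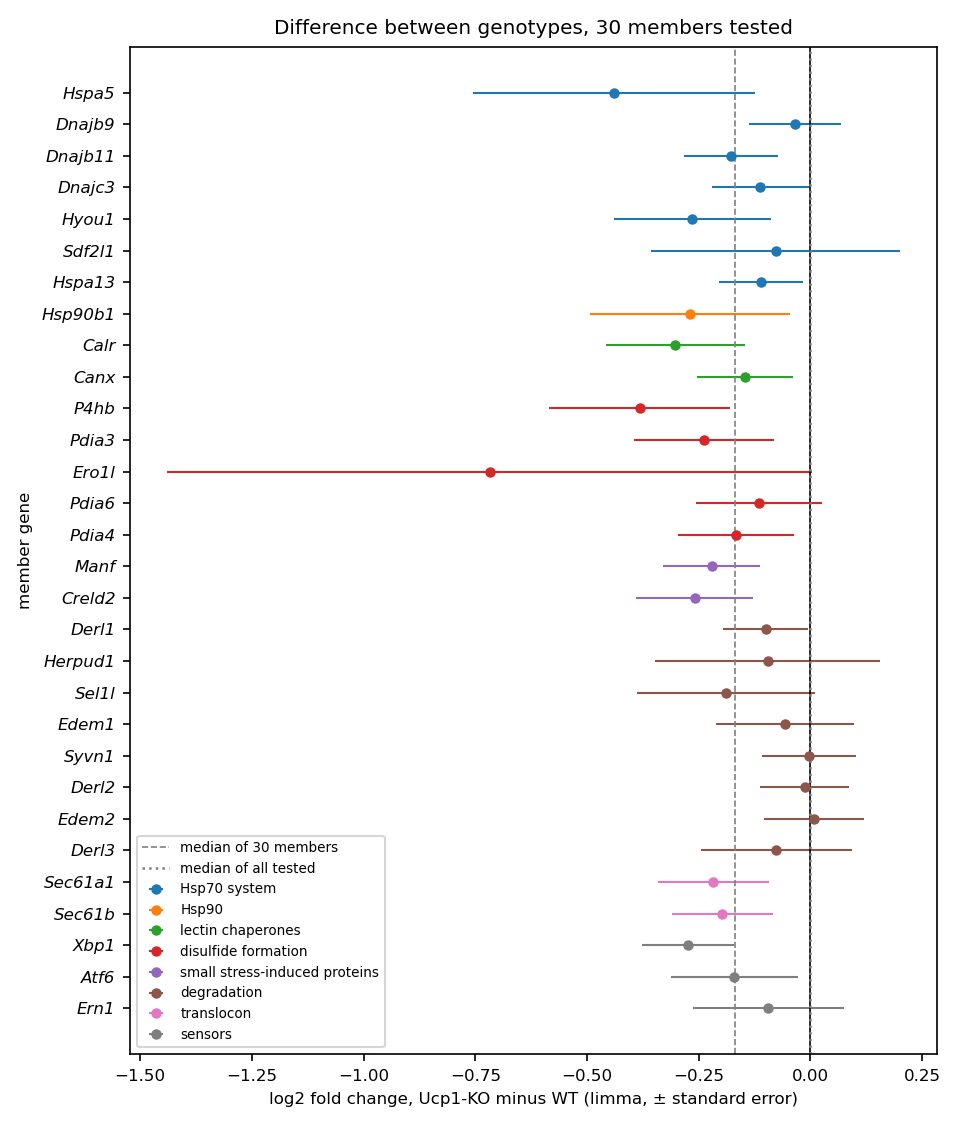
Log2 fold change (Ucp1-KO minus WT) of the 30 tested members with its standard error, by limma on log2(RPKM + 1), coloured by role; the dashed line is the median of the members and the dotted line the median of all transcripts tested. All points but Edem2 lie below 0, Ero1l has the widest error, and the medians are −0.17 and −0.00.

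Hspa5, also called BiP, is the Hsp70 of the compartment, which holds unfolded chains and keeps the stress sensors inactive. Its gene on chromosome 2 (34772090 to 34776529) gave 285, 530 and 575 RPKM in WT 10, 11 and 12. In Ucp1-KO 13, 14 and 15 it gave 236, 367 and 402 RPKM. WT 10 lay among the Ucp1-KO cultures and the other WT cultures above them. The means were 464 ± 156 in WT and 335 ± 87.5 in Ucp1-KO (SD, n = 3). The log2 fold change of −0.44 had a standard error of 0.31 (limma, adjusted p = 0.878), and the highest culture was 2.44 times the lowest. The fold change was −0.76 without WT 10, −0.25 without WT 12 and −0.21 without Ucp1-KO 13.

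The partners of Hspa5 had smaller differences between the genotypes. All 7 genes of the Hsp70 system had a log2 fold change below 0, from −0.44 in Hspa5 to −0.03 in Dnajb9, with a median of −0.11. Hyou1, which helps Hspa5 to exchange its nucleotide, stood at −0.26. The J-domain cochaperones Dnajb9, Dnajb11 and Dnajc3, which hand substrates to Hspa5, stood at −0.03, −0.18 and −0.11. Sdf2l1, found in a complex with Dnajb11, gave 9.83, 20.8 and 18.7 RPKM in WT and 11.8, 17.2 and 16.02 RPKM in Ucp1-KO. Its lowest value was WT 10 and its next lowest Ucp1-KO 13, so that its spread lay within each genotype. Between the genotypes its log2 fold change was −0.08. The ratio of Hspa5 to Sdf2l1 was 28.4 ± 2.63 in WT and 22.2 ± 2.64 in Ucp1-KO (SD, n = 3), with p = 0.10 in the exact permutation test. That is the smallest p that 3 against 3 cultures can give, and 12 such ratios between members or to a related gene were computed.

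Hsp90b1, the Hsp90 of the compartment, gave 203, 333 and 329 RPKM in WT 10, 11 and 12. Its values in Ucp1-KO 13, 14 and 15 were 193, 248 and 264 RPKM. As for Hspa5, WT 10 and Ucp1-KO 13 were the lowest of their genotypes, and the log2 fold change was −0.27 with a standard error of 0.22. It was −0.51 without WT 10, −0.15 without WT 11, −0.16 without WT 12 and −0.13 without Ucp1-KO 13. The ratio of Hspa5 to Hsp90b1 lay between 1.23 and 1.75 in all 6 cultures, while the level of Hspa5 alone varied 2.44-fold.

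The lectin chaperones calreticulin and calnexin hold glycoproteins during folding, the former in the lumen and the latter in the membrane. Calr gave 241, 338 and 315 RPKM in WT 10, 11 and 12. It gave 215, 268 and 237 RPKM in Ucp1-KO 13, 14 and 15. Only WT 10 overlapped with the Ucp1-KO cultures. On the log2 scale the difference was −0.30 with a standard error of 0.16 (limma, adjusted p = 0.871). Canx varied less, between 78.8 and 97.2 RPKM, and its log2 fold change was −0.15. The ratio of Calr to Canx lay between 2.72 and 3.52.

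Among the enzymes of disulfide formation, P4hb and Pdia3 had another order of the cultures than Hspa5. P4hb, the protein disulfide isomerase that also serves as a subunit of prolyl hydroxylase, gave 196, 335 and 241 RPKM in WT 10, 11 and 12. It gave 202, 209 and 169 RPKM in Ucp1-KO 13, 14 and 15. WT 11 was far above the rest, and the lowest culture was Ucp1-KO 15. The difference was −0.38 on the log2 scale with a standard error of 0.20, and −0.18 without WT 11. Pdia3, the isomerase that works with the lectin chaperones, gave 88.3, 128 and 115 RPKM in WT and 91.5, 103 and 83.6 RPKM in Ucp1-KO. Its cultures fell in the same places as those of P4hb, with WT 11 highest and Ucp1-KO 15 lowest, and its log2 fold change was −0.24. For Pdia4 and Pdia6, which belong to the same family, it was −0.17 and −0.11, and their lowest cultures were WT 10 and Ucp1-KO 13 in each genotype.

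Ero1l, the oxidase that recharges P4hb, varied most of all members. It gave 50.4, 143 and 158 RPKM in WT 10, 11 and 12. In Ucp1-KO 13, 14 and 15 it gave 21.8, 80.9 and 141 RPKM. Both genotypes spanned low and high cultures, and the highest was 7.26 times the lowest. The log2 fold change of −0.72 was the furthest from 0 among the members, with a standard error of 0.72 (limma, adjusted p = 0.902), and it was 0.03 without Ucp1-KO 13. The residual SD of Ero1l was 1.15 on the log2(RPKM + 1) scale, against a median of 0.18 over the members. Relative to P4hb it lay between 0.108 in Ucp1-KO 13 and 0.834 in Ucp1-KO 15. Its paralog Ero1lb, best known from pancreas, gave 0.235, 0.481 and 0.586 RPKM in WT and 0.292, 0.479 and 0.409 RPKM in Ucp1-KO. Ero1l was between 74.5 and 345 times as abundant per length as Ero1lb.

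**Figure D4:**
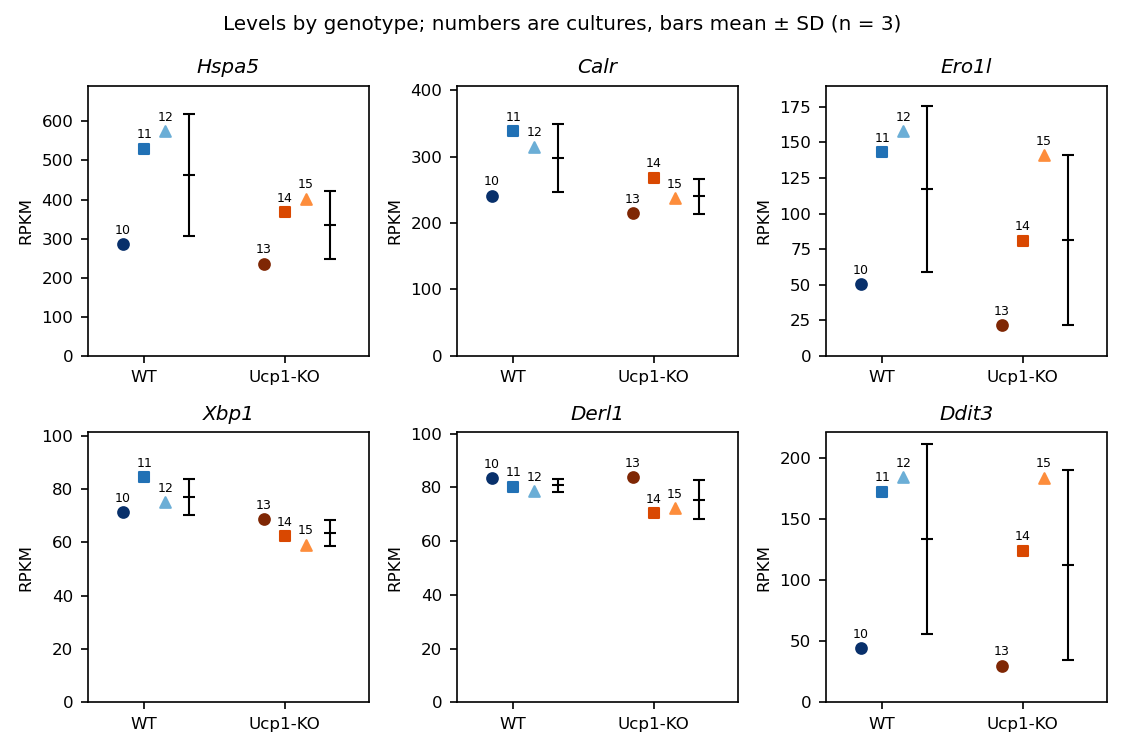
RPKM (linear axes from 0) of Hspa5, Calr, Ero1l, Xbp1, Derl1 and Ddit3 by genotype, with 1 numbered symbol per culture and bars for the mean ± SD (n = 3). WT 10 and Ucp1-KO 13 are the lowest of their genotypes for Hspa5, Calr, Ero1l and Ddit3, while Xbp1 is the gene whose genotypes do not overlap.

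Xbp1, the transcription factor whose mRNA is spliced by IRE1, was the member with the smallest p. Its gene on chromosome 11 (5520641 to 5525993) gave 71.3, 84.3 and 75.1 RPKM in WT 10, 11 and 12. It gave 68.8, 62.3 and 59.2 RPKM in Ucp1-KO 13, 14 and 15. All Ucp1-KO cultures lay below all WT cultures, with means of 63.4 ± 4.91 against 76.9 ± 6.70 (SD, n = 3), or 82.5% of WT. The log2 fold change was −0.27 with a standard error of 0.10 (limma, unadjusted p = 0.033, adjusted p = 0.868), and the exact permutation test gave p = 0.10. Xbp1 was the only 1 of 30 members without overlap of the genotypes, against 11.2% of all transcripts tested, or 5.15% without overlap and lower in Ucp1-KO. With median-of-ratios scaling 4 members did not overlap, against 11.8% of all transcripts, and with the RefSeq rows of a gene summed 2 did not, against 10.8%. RPKM values do not separate the spliced from the unspliced mRNA.

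The sensors themselves were low beside the most abundant chaperones, and their genotypes overlapped. The median over all transcripts tested was 7.39 RPKM, below the mean of Atf6 and above that of Ern1. Atf6, the membrane-bound transcription factor released by cleavage, gave 13.3, 12.9 and 15.01 RPKM in WT 10, 11 and 12 and 10.02, 12.01 and 14.5 RPKM in Ucp1-KO 13, 14 and 15. Its log2 fold change was −0.17. Ern1, which encodes IRE1, gave 3.74, 4.31 and 5.19 RPKM in WT and 3.13, 4.25 and 4.92 RPKM in Ucp1-KO. Ucp1-KO 13 was lowest in both, and the difference of −0.09 in Ern1 was smaller than its residual SD of 0.23.

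The 8 degradation genes had the median log2 fold change closest to 0 among the roles, −0.07, with 7 of 8 below 0. This direction depended on single cultures. Herpud1, Edem1, Syvn1 and Derl2 turned above 0 without WT 12, and Herpud1, Edem1 and Syvn1 without Ucp1-KO 13. Derl1, a channel component for export to the cytosol, gave 83.5, 80.2 and 78.7 RPKM in WT and 83.7, 70.5 and 72.3 RPKM in Ucp1-KO. It was among the steadiest members, since the highest culture was 1.19 times the lowest. Derl1 was between 5.33 and 7.13 times as abundant as Derl2 and between 48.8 and 85.4 times as abundant as Derl3. Derl3 gave 1.53, 1.21 and 1.44 RPKM in WT and 1.71, 0.825 and 1.35 RPKM in Ucp1-KO. Its log2 fold change was −0.08 with a standard error of 0.17.

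Herpud1 and Sel1l, scaffold proteins of the ubiquitin ligase Syvn1, spread more widely. Herpud1 gave 17.9, 30.6 and 29.6 RPKM in WT 10, 11 and 12 and 18.0, 24.6 and 29.95 RPKM in Ucp1-KO 13, 14 and 15. WT 10 and Ucp1-KO 13 were again low and the other 4 higher, and the log2 fold change was −0.10. Sel1l stood at −0.19. Syvn1 and Edem2, a protein that marks misfolded glycoproteins by mannose trimming, stood at −0.00 and 0.01, and Edem2 was the only member with a value above 0. The values of Edem1 and Derl2 were −0.06 and −0.01.

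The translocon subunits Sec61a1 and Sec61b form the channel through which new chains enter, and their log2 fold changes were −0.22 and −0.20. Manf and Creld2, small secreted proteins known to be induced by stress, stood at −0.22 and −0.26. For none of these 4 did the adjusted p (limma) fall under 0.871. Hspa13, an Hsp70-like protein of the microsomes, stood at −0.11.

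The order of the cultures was alike in many members. For 17 of 30 members the residual SD was larger than the size of the log2 fold change, a smaller share than the 67.9% of all transcripts tested. WT 10 was the lowest WT culture for 27 of 30 members, against 56.1% of all transcripts, and Ucp1-KO 13 the lowest Ucp1-KO culture for 17, against 45.1%. Both held for 16 members, against 33.9% of all transcripts. These 16 were Hspa5, Hyou1, Sdf2l1, Hsp90b1, Calr, Canx, Ero1l, Pdia4, Pdia6, Manf, Herpud1, Sel1l, Syvn1, Edem1, Edem2 and Ern1. In some of them the Ucp1-KO cultures lay close together, so that their order means little. In Ucp1-KO 13, 14 and 15, Manf gave 33.7, 33.8 and 35.5 RPKM and Pdia4 gave 59.8, 62.1 and 60.3 RPKM. In another 7, namely P4hb, Pdia3, Xbp1, Dnajb9, Dnajb11, Dnajc3 and Sec61a1, the lowest cultures were WT 10 and Ucp1-KO 15, against 16.7% of all transcripts.

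The median deviation of the members from their mean over 6 cultures was −0.14, 0.23 and 0.15 in WT 10, 11 and 12, and −0.13, −0.05 and −0.05 in Ucp1-KO 13, 14 and 15. Over all transcripts it was −0.06, 0.05 and 0.02 in WT and −0.04, 0.02 and −0.00 in Ucp1-KO. The members thus stood highest in WT 11 and WT 12, while WT 10 was as low as Ucp1-KO 13. The reads of the members were 0.479, 0.726 and 0.705% of the total in WT and 0.446, 0.543 and 0.565% in Ucp1-KO.

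**Figure D5:**
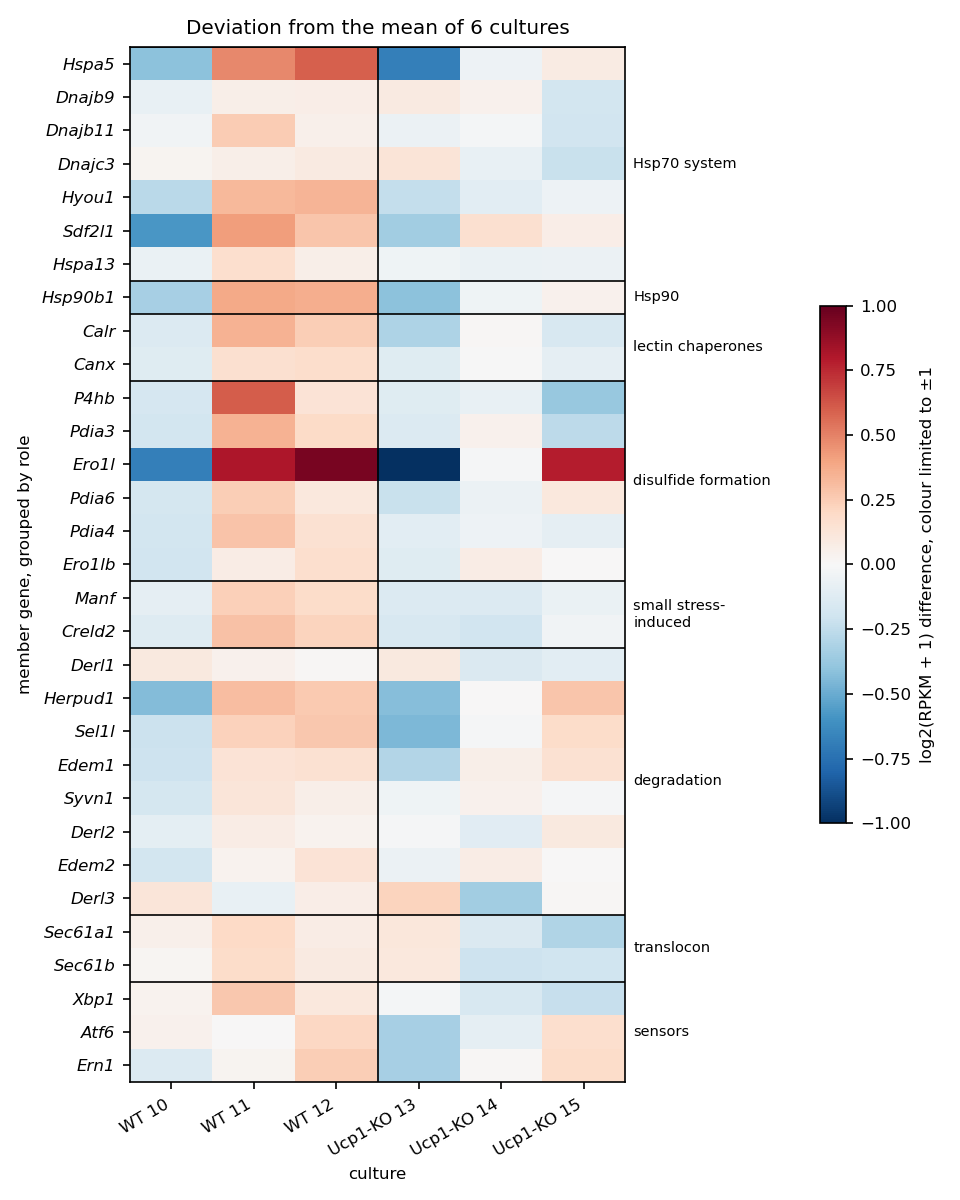
Deviation of each member from its mean over the 6 cultures in log2(RPKM + 1), as colour limited to ±1, with cultures in columns and members in rows grouped by role. WT 10 and Ucp1-KO 13 are blue for most chaperones, and WT 11 and WT 12 are red, with member medians of 0.23 and 0.15.

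The numbers of members at an unadjusted p under 0.05 or without overlap therefore depended most on WT 10. The member median of −0.17 depended on other cultures too, at −0.24 without WT 10, −0.12 without WT 11 and −0.11 without WT 12. Without WT 10, 11 members had an unadjusted p under 0.05 (limma), against 10.4% of all transcripts tested, and these were Hspa5, Calr, Hsp90b1, P4hb, Pdia3, Canx, Xbp1, Pdia4, Manf, Hyou1 and Creld2. The smallest adjusted p among the members was then 0.376, and 17 members did not overlap, against 32.8% of all transcripts. Without Ucp1-KO 13, 3 members had an unadjusted p under 0.05, namely Xbp1, Sec61a1 and Sec61b, against 9.15% of all transcripts, a share close to that of the members. Leaving out WT 11, WT 12, Ucp1-KO 14 or Ucp1-KO 15 gave 0 members each, against 1.87, 2.61, 3.57 and 5.18% of all transcripts. The sign of the log2 fold change also turned in 10 members when a culture was left out. It turned without Ucp1-KO 13 in Ero1l, Herpud1, Edem1, Sdf2l1, Syvn1 and Ern1, without WT 11 in Herpud1, Sdf2l1, Syvn1 and Derl2, and without WT 12 in these 4 and in Edem1 and Ern1. Edem2 turned without WT 10 or Ucp1-KO 14, Derl2 and Derl3 without Ucp1-KO 14, and Dnajb9 and Syvn1 without Ucp1-KO 15. The other 20 members kept their sign, and for Calr, Manf and Xbp1 no culture moved the value by more than 1.5 times. Without WT 10 and without WT 11, the value was −0.39 and −0.12 for Pdia3, −0.30 and −0.07 for Pdia4, −0.23 and −0.02 for Pdia6, −0.46 and −0.17 for Hyou1, and −0.17 and −0.05 for Hspa13. Canx stood at −0.24 without WT 10 and −0.09 without WT 12, Creld2 at −0.39 without WT 10, Dnajb11 at −0.10 without WT 11 and Hyou1 at −0.16 without WT 12. Sel1l moved between −0.34 without WT 10 and −0.01 without Ucp1-KO 13, and Atf6 between −0.30 without Ucp1-KO 15 and −0.05 without Ucp1-KO 13. Without Ucp1-KO 13, Pdia6 stood at −0.03, Sec61a1 at −0.33, Sec61b at −0.30, Dnajc3 at −0.20 and Derl1 at −0.18. Without Ucp1-KO 15, Sec61a1 stood at −0.12, Dnajc3 at −0.03 and Pdia6 at −0.20, and without Ucp1-KO 14 Derl1 stood at −0.05.

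The genotype difference was also set against the promoter elements. The 9 tested members with the ER stress response element had a median log2 fold change of −0.15, and the 13 with a window but neither element had −0.17. Of the same 9, 6 were lowest in WT 10 and Ucp1-KO 13, as were 7 of the 13. No test was made of these counts.

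The other genes of the pathway were taken from a list of 69, of which 68 could be tested. With limma, 0 of 68 passed an adjusted p of 0.05 and 1 had an unadjusted p under 0.05, against 5.54% of all transcripts tested, while 2 did with limma-voom (5.30% of all). There were 13 without WT 10 (10.4% of all), 4 without Ucp1-KO 13 (9.15%), 1 without Ucp1-KO 14 (3.57%) and 0 without WT 11, WT 12 or Ucp1-KO 15 (1.87, 2.61 and 5.18%). The log2 fold change was below 0 for 55 of the 68, against 50.4% of all transcripts, and above 0 for 13, with a median of −0.13 against −0.00. In 9 the genotypes did not overlap, against the 11.2% of all transcripts given above. Wfs1, wolframin, a membrane protein of the reticulum, had the smallest p. It gave 8.89, 17.7 and 16.2 RPKM in WT 10, 11 and 12 and 7.82, 8.51 and 7.84 RPKM in Ucp1-KO 13, 14 and 15. The 3 Ucp1-KO cultures lay close together and WT 10 just above them. The log2 fold change was −0.70 with a standard error of 0.24 (limma, unadjusted p = 0.021, adjusted p = 0.868).

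The next smallest p-values belonged to Sec63 (log2 fold change −0.22), which brings Hspa5 to the translocon, and to Sec11c (0.20), a subunit of the signal peptidase. Sec63 gave 13.5, 15.5 and 14.9 RPKM in WT and 11.7, 13.02 and 12.6 RPKM in Ucp1-KO. Sec11c gave 20.8, 21.7 and 22.7 RPKM in WT and 24.4, 27.2 and 24 RPKM in Ucp1-KO, so that it differed in the direction opposite to Sec63. They were followed by Creb3l2 (−0.30), a relative of Atf6, Mogs (−0.20), the first glucosidase of glycan trimming, and Rpn1 (−0.18), a subunit of the oligosaccharyltransferase. Creb3l2 gave 6.20, 8.83 and 8.79 RPKM in WT and 6.46, 6.05 and 6.13 RPKM in Ucp1-KO, so that WT 10 lay among the Ucp1-KO cultures. Mogs gave 10.7, 12.8 and 11.9 RPKM in WT and 9.88, 10.4 and 10.2 RPKM in Ucp1-KO. The values of Rpn1 were 36.01, 37.9 and 37.4 RPKM in WT and 35.6, 31.9 and 30.4 RPKM in Ucp1-KO. In Sec63, Mogs and Rpn1 all Ucp1-KO cultures lay below all WT cultures.

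The 8 listed genes of the PERK branch differed in spread. Ddit3 and Trib3 varied 6.14- and 6.48-fold over the 6 cultures, while Eif2ak3, Ppp1r15b and Nck1 varied 1.36-, 1.19- and 1.26-fold. Eif2ak3, which encodes PERK, gave 4.70, 5.72 and 5.77 RPKM in WT and 4.24, 5.03 and 4.90 RPKM in Ucp1-KO, with a log2 fold change of −0.16. Atf4, the transcription factor translated when PERK is active, gave 85.9, 156 and 153 RPKM in WT and 74.9, 109 and 154 RPKM in Ucp1-KO. Ddit3, which encodes CHOP, gave 44.1, 172 and 184 RPKM in WT and 29.9, 124 and 184 RPKM in Ucp1-KO. In Atf4, Ddit3 and Ero1l alike, the order of the WT cultures began with WT 10 and that of the Ucp1-KO cultures ran from 13 over 14 to 15. The residual SD of Ddit3 was 1.26, and its log2 fold change of −0.34 had a standard error of 0.79.

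Markers of other cell types also differed between the cultures. Preadipocyte and stromal markers, whose cells secrete collagen, summed to 866, 1901 and 1220 RPKM in WT 10, 11 and 12 and to 1153, 1036 and 701 RPKM in Ucp1-KO 13, 14 and 15. All 8 of the 9 that were tested had a log2 fold change below 0, against 50.4% of all transcripts tested. Ly6a among them, at −0.08, nevertheless had the higher mean RPKM in Ucp1-KO, 122 against 114 in WT. The untested Dlk1 also had, with 0.431 against 0.228 RPKM. The sum was highest in WT 11 and lowest in Ucp1-KO 15. WT 10 was the lowest WT culture, as for most members, but Ucp1-KO 13 was the highest Ucp1-KO culture. Macrophage markers summed to between 59.4 and 179 RPKM in WT and to 166, 817 and 42.5 RPKM in Ucp1-KO 13, 14 and 15, so that Ucp1-KO 14 alone lay above WT. The log2 fold change was above 0 for 5 of 6. The endothelial markers summed to between 2.45 and 29.6 RPKM in WT and between 5.51 and 13.4 RPKM in Ucp1-KO, with 4 of 4 tested lower in Ucp1-KO. None of the markers in these 3 lists was at 0 in any culture. Those of skeletal muscle stayed at or under 10.6 RPKM in sum, with 3 of 5 at 0 in a culture. The part of these cells in the levels of the members was not tested.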

How the data were processed

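RNA of 3 WT and 3 Ucp1-KO cultures was analysed, with genotype and number from the sample labels. The authors prepared libraries with a TruSeq kit and processed single-end reads of 50 bases with Genomatix software. Alignment was to build 38 of the mouse genome, and only uniquely placed reads counted towards annotated transcripts. The submitters' processing notes also name CASAVA and bcl2fastq. The version of the aligner is not given in the sources used here. The values deposited by the authors are RPKM, normalised to transcript length and mapped reads. The authors compared the genotypes with DESeq2 and reported a short list of differentially expressed genes, among them Ucp1. DESeq2 was not used here.

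Of 168326 rows, the 28890 RefSeq transcripts (26277 coding and 2613 non-coding transcripts) were used. The kit marks no strand, so that reads of overlapping genes on opposite strands cannot be told apart. The 16865 with a mean of at least 0.5 RPKM were tested for a difference between the genotypes in limma (version 3.58.1; R version 4.3.3). The model was fitted to log2(RPKM + 1) with no covariate, and variances were moderated with a trend on intensity. P-values are two-sided and were adjusted by the Benjamini-Hochberg method over all 16865. A fold change on this scale understates that of low transcripts. Single values were compared by exact two-sided permutation tests, for which 3 against 3 cultures give at least p = 0.10. Python 3.11.15 with numpy 2.4.6, pandas 2.3.3 and matplotlib 3.10.9 was used for the rest.

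RPKM values are whole multiples of what 1 read is worth, and library totals were taken from Ensembl rows of known length, of which 94.0 to 94.1% came out whole within 0.05 reads. With these totals, a length at which all 6 values were whole reads, within 0.003 reads and the rounding of the values, was found for 100% of the RefSeq transcripts tested. The 6 totals lay between 14989604 and 17727653. Cultures of 1 genotype differed by a chi-square of 12.2 to 59.4 per gene, so that no library was a copy of another. The comparison and the recovery of reads were tested on simulated data. For the comparison, the simulated spread was capped below that of variable members such as Ero1l and Hspa5. It was also drawn independently for each transcript, so that the simulation was easier than the data. No molecular identifiers were used, and read numbers therefore cover counting error only.

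The members and gene lists were chosen with earlier results of these data known. By rule, values in every culture are given for members with an unadjusted p under 0.05 or without overlap, the 5 most abundant, the 5 most variable and the sensors, and for the 6 other pathway genes with the smallest p. Further genes were added after their values were seen. Alternatives were another constant, other minimum abundances, scaling by the median of ratios, the sum of a gene's RefSeq rows, 1 transcript per gene in the fit, no intensity trend, limma-voom on reads and leaving out each culture. Sequences are from RefSeq windows on GRCm38.p6.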

Additional observations from a re-analysis of the deposited data

How the results depend on the processing

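Of the 14 alternatives, 6 left out a culture and 8 changed another setting. No member and no gene of the wider list passed the adjusted threshold under any of them (limma or limma-voom). Median-of-ratios scaling raised the members without overlap from 1 to 4 (Xbp1, Manf, Dnajb11 and Hspa13), against 11.8% of all transcripts, and turned Syvn1 to 0.0086. The exact test of single levels was not rerun on the scaled values. Summing the RefSeq rows of a gene gave 2 (10.8% of all). The wider list had 3 genes at an unadjusted p under 0.05 without a minimum abundance (5.73% of all), 3 with median-of-ratios scaling (5.93%) and 2 with limma-voom (5.30%), against 1, shares of the list no higher than those of all transcripts.

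Leaving out each culture in turn moved the members at an unadjusted p under 0.05 between 0 and 11 (1.87 to 10.4% of all transcripts) and those without overlap between 1 and 17 (14.3 to 32.8% of all), with the highest numbers and shares without WT 10. The wider list moved between 0 and 13, the member median between −0.24 and −0.11, their median residual SD between 0.141 and 0.198, and Ucp1 between −1.96 and −1.53. Of 420 recomputed log2 fold changes, 23 changed sign, in 10 members, and 20 members never did. The ranges were −1.29 to 0.030 for Ero1l, −0.33 to 0.092 for Herpud1, −0.17 to 0.074 for Edem1, −0.39 to 0.11 for Sdf2l1, −0.093 to 0.058 for Syvn1, −0.067 to 0.039 for Derl2, −0.081 to 0.079 for Edem2, −0.21 to 0.050 for Ern1, −0.21 to 0.079 for Derl3 and −0.088 to 0.050 for Dnajb9. The cause was not tested. No paired analysis was possible because WT and Ucp1-KO cultures have no replicate number in common. Ero1lb and Derl3 rested on the fewest reads.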

Other observations

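Among 5038 genes with a mean of at least 10 RPKM, those whose pattern over the 6 cultures was most like that of Hspa5 were Gstk1, Sirt2, Bre, Pvr and Rit1. Gstk1 gave 16.9, 22.5 and 22.6 RPKM in WT 10, 11 and 12 and 15.4, 19.0 and 19.6 RPKM in Ucp1-KO 13, 14 and 15. All points share the 6 libraries, and this is a description of them.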
